A study of Homo sapiens with 21 samples.

Results

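The D-type cyclins, the kinases they activate, the inhibitors of those kinases and the retinoblastoma gene were followed in HepG2 cells exposed to 6 concentrations of caffeine for 24 h. The 10 genes were chosen by name and matched by symbol through the Ensembl identifiers of the deposited count table, and all 10 were found among its 37637 features. They are the cyclin genes CCND1, CCND2 and CCND3, the kinase genes CDK4 and CDK6, the inhibitor genes CDKN1B, CDKN1C, CDKN2C and CDKN2D, and RB1. HepG2 is an established human liver tumour line, so all groups are replicate cultures of a single line. Poly(A)-selected RNA was sequenced from 7 groups of 3 libraries: an untreated control at 0 µM and cells given 0.01, 0.1, 1, 10, 100 or 1000 µM caffeine. All 7 groups, the control included, spent the 24 h in serum-free DMEM after removal of the medium with serum, so every value below is from cells without serum.

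In G1, D-type cyclins accumulate in response to growth signals and activate CDK4 and CDK6. These kinases phosphorylate the retinoblastoma protein RB and its relatives, which releases E2F transcription factors and with them the genes of DNA replication. Inhibitors of the INK4 family, here p18 (CDKN2C) and p19 (CDKN2D), bind CDK4 and CDK6 directly, whereas the Cip/Kip proteins p27 (CDKN1B) and p57 (CDKN1C) bind cyclin-kinase complexes and block CDK2. In the adult liver most hepatocytes are out of the cycle, and cyclin D1 is the D cyclin best known for its rise when they re-enter it.

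The libraries held 23502519 to 44815552 counts each. The cells carried the labelled identity: all 7 hepatocyte markers examined were present, at a summed 22163 to 31784 CPM (counts scaled to a common library size after normalization by the trimmed mean of M values), against 0.196 to 0.995 CPM for 5 blood and fibroblast markers, 4 of which never exceeded 2 counts. The endothelial markers listed, PECAM1 and KDR, were not matched by symbol, so no endothelial marker was measured. The levels of the individual mitochondrial mRNAs split the 21 libraries into 3 sets that cut across the doses. They are given here with the share of counts from all features of the mitochondrial chromosome. Set A held the 3 control, 3 0.01 µM and 3 0.1 µM libraries and 1 µM replicates 1 and 2 (9.95 to 14.2% mitochondrial). Set B held 1 µM replicate 3, all 3 10 µM libraries, 100 µM replicate 2 and 1000 µM replicates 1 and 2 (4.72 to 4.95%). Set C held 100 µM replicates 1 and 3 and 1000 µM replicate 3 (11.8 to 12.8%). All controls are in set A and no library at 10 µM or above is, so for those doses the set and the dose can be separated only through 1 µM replicate 3. Results are given below with and without a term for the library set. In bulk RNA, a change in the share of cells in a phase of the cycle and a change in transcript per cell cannot be told apart.

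In the untreated cells CCND1 and CDK4 were the most abundant of the 10 transcripts per length. On the scale of CPM per kb of exon, CCND1 stood at 38.6 ± 4.08 (SD, n = 3), CDK4 at 34.3 ± 3.21, CDKN1B at 18.7 ± 0.979, CDK6 at 14.5 ± 1.27 and RB1 at 10.1 ± 1.29. CDKN2D followed at 5.50 ± 1.04, CCND3 at 2.15 ± 0.534, CDKN2C at 1.70 ± 0.0449 and CCND2 at 0.987 ± 0.136. The control ranges of CCND1 (34.2 to 42.2) and CDK4 (31.6 to 37.8) overlapped, as did those of CCND3 (1.55 to 2.57) and CDKN2C (1.65 to 1.74), and the other neighbours in this order did not overlap. CCND1 supplied 92.5% ± 0.453 of the summed D-cyclin transcript per length in the control and 94.1% ± 0.497 at 1000 µM, so cyclin D1 was the main D cyclin transcript at every dose. CDKN1C, which encodes p57, was near the detection limit: 7 counts in all 21 libraries together, 2, 1 and 1 of them in the control libraries and the rest as single counts in 1 µM replicates 2 and 3 and 100 µM replicate 2. A count of 0 allows up to 3 counts in a library, so no fold change is given for CDKN1C, and the other 9 genes were tested.

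Promoter sequence is shown for CDKN2C, CDK4 and CDKN1B, since CDKN2C and CDK4 fell and CDKN1B rose between 100 and 1000 µM, as described below. Each line is the 250 bases before an annotated start, 5′ to 3′ on the gene's strand, from RefSeq on GRCh38.p14, with every copy of the GC box (GGGCGG, or CCGCCC where it lies on the other strand), a binding sequence of SP family factors, in capitals. CDKN2C has 3 annotated starts, and the window with the most GC boxes is shown. The windows are chr1:50968456-50968705 on the plus strand for CDKN2C, chr12:57752311-57752560 on the minus strand for CDK4 and chr12:12717118-12717367 on the plus strand for CDKN1B.
CDKN2C: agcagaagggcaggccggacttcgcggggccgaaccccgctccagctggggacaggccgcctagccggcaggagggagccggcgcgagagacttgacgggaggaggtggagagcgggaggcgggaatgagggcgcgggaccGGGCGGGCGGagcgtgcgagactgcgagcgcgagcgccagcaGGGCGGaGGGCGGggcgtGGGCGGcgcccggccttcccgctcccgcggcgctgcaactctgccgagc
CDK4: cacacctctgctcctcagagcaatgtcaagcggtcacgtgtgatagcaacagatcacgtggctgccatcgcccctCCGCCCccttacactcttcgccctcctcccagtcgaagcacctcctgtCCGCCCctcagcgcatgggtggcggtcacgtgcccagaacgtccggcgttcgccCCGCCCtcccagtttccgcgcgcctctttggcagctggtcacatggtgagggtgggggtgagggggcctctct
CDKN1B: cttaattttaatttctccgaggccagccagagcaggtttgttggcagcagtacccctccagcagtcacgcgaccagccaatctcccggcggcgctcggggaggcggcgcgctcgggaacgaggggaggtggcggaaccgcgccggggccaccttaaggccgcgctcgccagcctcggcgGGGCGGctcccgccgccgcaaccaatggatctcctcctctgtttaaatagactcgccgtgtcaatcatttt

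Counting overlapping copies, these windows held 5 GC boxes for CDKN2C, 3 for CDK4 and 1 for CDKN1B. The CDKN2C windows not shown held 0 (chr1:50960495-50960744, before the outermost start) and 1 (chr1:50969995-50970244). RefSeq starts were matched for 7 of the 10 genes (12 starts), and 8 of the 12 windows held a GC box, against 42.6% of 35116 windows of the same length. On either strand none of the 12 held the E2F sequences TTTGGCGC, TTTCGCGC, TTTCCCGC or TTTGCCGC (2.79% of all windows), the cyclic AMP response element TGACGTCA (1.65%), the FOXO site GTAAACA (2.98%) or the cell cycle genes homology region TTTGAA (13.3%). The 3 windows printed, the RB1 window (chr13:48476200-48476449) and those of CCND3 lie inside the genes' GENCODE 29 bounds, before internal starts. For CDK4, CDKN1B, RB1 and CCND3 the sequence before the outermost start was not scanned. A match or its absence describes the letters of these windows only.

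Caffeine at 100 µM and 1000 µM gave different patterns of the G1 genes. At 100 µM, CCND1, CDK4 and CDKN2C rose while CCND2 and CDKN2D fell, but with the set term CCND1 (0.16, adjusted p = 0.465) and CDK4 (-0.024, adjusted p = 0.946) no longer passed. At 1000 µM, all 3 D cyclins and both INK4 inhibitors fell while CDK6 and CDKN1B rose. Here CCND3 (-0.013, adjusted p = 0.988) and CDK6 (0.29, adjusted p = 0.208) no longer passed with that term. The genes called by edgeR's quasi-likelihood test at a Benjamini-Hochberg adjusted p below 0.05, over the 17951 features tested, numbered 5 of 9 at 100 µM (46.6% of all features were called) and 7 of 9 at 1000 µM (57.6%), and nothing particular to these genes is read from either count. At 10 µM, 2 of 9 were called (14.8% of all features), CDK4 upward and CDKN1B downward. At 0.01 µM (0.0279% of all features called), 0.1 µM (0%) and 1 µM (0.106%) none of the 9 was called, although 2, 1 and 3 of them had an unadjusted p below 0.05 (of all 17951 features, 2698, 1701 and 2811 did). DESeq2's Wald test called 1 of the 9, RB1, at 0.01 µM (3.13% of the features it gave an adjusted p) and at 1 µM (3.22%), and none at 0.1 µM (0.498%). A joint test of all 6 doses against control called 9 of 9 (73.6% of all features). The same test with the set term called 8 of 9 (59.8%), and CCND3 no longer passed (adjusted p = 0.125). The 6 dose comparisons share the same 3 control libraries and are not independent of each other.

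**Figure D1:**
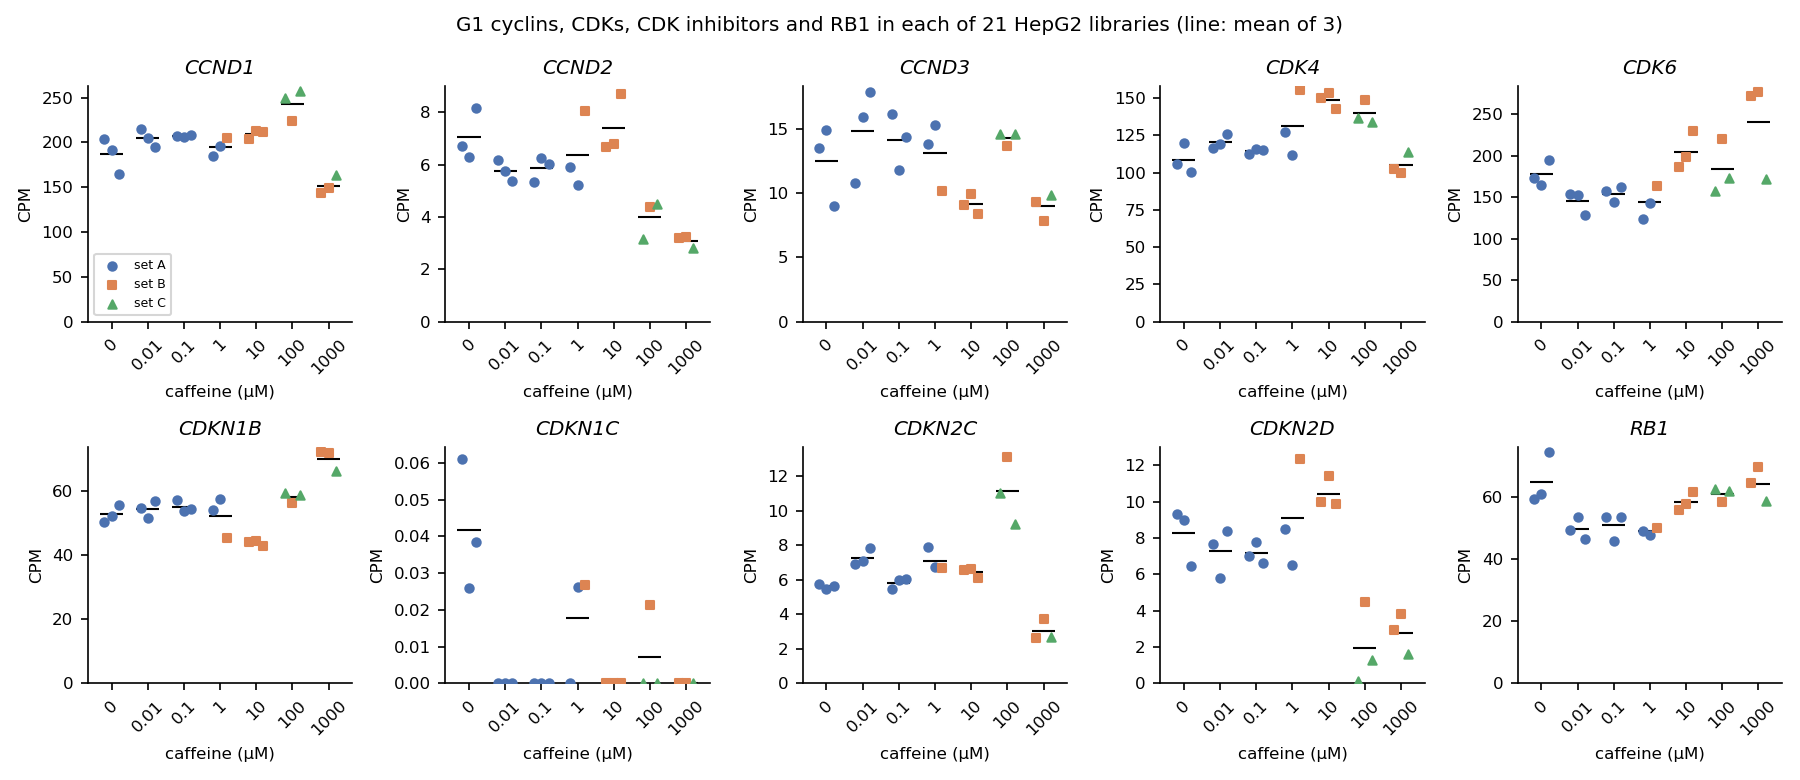
CPM of the 10 genes (y axes) in each of the 21 libraries by caffeine concentration (x axes, µM), with shape and colour for the library set and a line at the mean of 3 libraries. CDKN2C reached 9.22 to 13.1 CPM at 100 µM and fell to 2.63 to 3.72 CPM at 1000 µM, while CDKN1C never exceeded 0.0611 CPM.

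With the library set as a term, 4 of 9 genes were called at 100 µM (17.3% of all features) and 6 of 9 at 1000 µM (38%), and at 10 µM none was (0 of 9 at an unadjusted p below 0.05, and 0.0279% of all features called). In that fit 1 gene, RB1, was called at 0.01 µM (3.02%). A slope on the rank of the dose called only CCND2, downward, and CDK6, upward (55.3% of all features), and with the set term CCND2 and CDKN1B (4.27%). The CCND2 slope was -0.14 ± 0.0408 log2 units per step of dose rank (adjusted p = 0.00539), -0.25 with the set term (adjusted p = 0.0361) and -0.099 in sets A and B alone (adjusted p = 0.0627). The CDK6 slope was 0.084 ± 0.0268 (adjusted p = 0.0105) and 0.018 with the set term (adjusted p = 0.813). A slope on the rank averages over doses, and CDKN2C, which rose at 100 µM and fell at 1000 µM, had a slope of 0.0044 ± 0.059.

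CCND1 (chr11:69641087-69654474, plus strand), the gene of cyclin D1, peaked at 100 µM and was lowest at 1000 µM. It stood at 204, 191 and 165 CPM in the control libraries, 204, 213 and 212 CPM at 10 µM, 249, 224 and 257 CPM at 100 µM, and 143, 149 and 164 CPM at 1000 µM. Every 100 µM library lay above every control library and every 1000 µM library below, the closest pair being 164 CPM at 1000 µM replicate 3 and 165 CPM in control replicate 3. The log2 fold change against control was 0.38 ± 0.0816 (SE) at 100 µM (edgeR adjusted p = 0.000818) and -0.30 ± 0.0817 at 1000 µM (adjusted p = 0.00425). The rise at 100 µM was 0.16 with the set term (adjusted p = 0.465) and 0.27 in sets A and B alone (adjusted p = 0.0584), where 1 library remains at that dose and is assumed to vary like the other groups. The fall at 1000 µM was -0.46 with the set term (adjusted p = 0.00618) and -0.30 in a fit of the control and that dose alone (adjusted p = 0.0676). LTO1, a neighbour on the opposite strand that shares 497 exon bases with CCND1, had 11792 counts in all against 140589 for CCND1. LTO1 stood at -0.22 at 100 µM (adjusted p = 0.0589) and -0.24 at 1000 µM (adjusted p = 0.0336). Whether the counting used strand is not given in the sources used here, so reads in shared exons cannot be assigned with certainty.

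CCND2 (chr12:4273772-4305350, plus strand), the gene of cyclin D2, fell at both high doses. Its level was 6.72, 6.31 and 8.17 CPM in the control libraries, 6.67, 6.78 and 8.72 CPM at 10 µM, 3.15, 4.37 and 4.50 CPM at 100 µM, and 3.22, 3.22 and 2.82 CPM at 1000 µM. No library at 100 or 1000 µM reached the lowest control or 10 µM library. The log2 fold change was -0.81 ± 0.169 at 100 µM (edgeR adjusted p = 0.00066) and -1.19 ± 0.172 at 1000 µM (adjusted p = 8.61e-06), and with the set term -1.22 and -1.66 (adjusted p = 0.00303 and 3.45e-05). An unnamed protein-coding gene on the same strand, ENSG00000285901, shares 989 exon bases with CCND2 and had 15593 counts in all against 4019 for CCND2. It fell too, by 0.37 at 100 µM (adjusted p = 0.0265) and 0.66 at 1000 µM on the log2 scale (adjusted p = 0.000294). Because of the shared bases, the counts of these genes may be split between them, which was not tested.

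CCND3 (chr6:41934933-42050357, minus strand), the gene of cyclin D3, was spread widely among the controls. It read 13.5, 14.9 and 8.97 CPM there, 9.06, 9.96 and 8.37 CPM at 10 µM, 14.6, 13.6 and 14.6 CPM at 100 µM, and 9.31, 7.80 and 9.87 CPM at 1000 µM. Control replicate 3 lay inside the range of the 1000 µM libraries and below the other controls. The log2 fold change at 1000 µM was -0.48 ± 0.197 (edgeR adjusted p = 0.0453), close to the threshold, and it passed in 12 of 28 alternative fits. It was -0.013 with the set term (adjusted p = 0.988), -0.55 in sets A and B alone (adjusted p = 0.0594), -0.33 without control replicate 2 (adjusted p = 0.213), -0.38 without 1000 µM replicate 2 (adjusted p = 0.158) and -0.47 with a replicate block (adjusted p = 0.0641). At 100 µM the difference of 0.19 ± 0.194 did not pass (adjusted p = 0.446). At 10 µM the value was -0.45 ± 0.195 (adjusted p = 0.122), and -0.63 without control replicate 3 (adjusted p = 0.0422).

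CDK4 (chr12:57747727-57756013, minus strand) encodes a cyclin D-dependent kinase. Its level was 106, 120 and 100.1 CPM in the control libraries, 150, 153 and 143 CPM at 10 µM, 137, 149 and 134 CPM at 100 µM, and 102, 99.4 and 114 CPM at 1000 µM. All 6 libraries at 10 and 100 µM lay above the highest control, and the 1000 µM libraries overlapped the controls. CDK4 differed from control by 0.45 ± 0.098 on the log2 scale at 10 µM (edgeR adjusted p = 0.00717), 0.37 ± 0.098 at 100 µM (adjusted p = 0.00502) and -0.046 ± 0.098 at 1000 µM (adjusted p = 0.709). The library set moved with these values: 1 µM replicate 3, in set B, read 155 CPM against 127 and 112 CPM for the other two 1 µM libraries in set A. With the set term CDK4 stood at 0.077 at 10 µM (adjusted p = 1), -0.024 at 100 µM (adjusted p = 0.946) and -0.43 at 1000 µM (adjusted p = 0.0209). The CDK4 calls against control at 10, 100 and 1000 µM thus differed between the fits with and without the set term. TSPAN31, on the opposite strand, shares 1369 exon bases with CDK4 and had 9831 counts against 87983. TSPAN31 rose by 0.32 at 10 µM (adjusted p = 0.0464) and fell by 0.53 from 10 to 1000 µM within set B (adjusted p = 0.000226). CDK4 moved the same way in both. TSPAN31 stood at -0.050 at 100 µM (edgeR adjusted p = 0.728) and at -0.13 from 100 to 1000 µM (adjusted p = 0.333). Without the set term CDK4 was called in both of those comparisons, at 0.37 and -0.41. Reads of these genes may be exchanged, which was not tested.

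CDK6 (chr7:92604921-92836594, minus strand) encodes the other cyclin D-dependent kinase. It stood at 173, 164 and 195 CPM in the control libraries, 186, 198 and 229 CPM at 10 µM, 158, 219.9 and 173 CPM at 100 µM, and 271, 276 and 172 CPM at 1000 µM. At 100 µM and at 1000 µM the set B libraries were the highest, and 1000 µM replicate 3, in set C, lay within the control range. The log2 fold change at 1000 µM was 0.44 ± 0.158 (edgeR adjusted p = 0.0237) and at 100 µM 0.052 ± 0.158 (adjusted p = 0.815). At 0.01, 0.1 and 1 µM it was -0.29, -0.20 and -0.30 (adjusted p = 0.386, 0.7 and 0.365). Every library at those doses lay below the lowest control. The rise at 1000 µM was 0.29 with the set term (adjusted p = 0.208), 0.62 in sets A and B alone (adjusted p = 0.000151) and 0.44 in a fit of the control and that dose alone (adjusted p = 0.0744). Leaving out control replicate 1 or 2 gave 0.42 and 0.38 (adjusted p = 0.0669 and 0.0886), and leaving out 1000 µM replicate 1 or 2 gave 0.34 and 0.32 (adjusted p = 0.111 and 0.123).

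CDKN1B (chr12:12715058-12722371, plus strand), the gene of p27, was the inhibitor that rose at the highest dose. It read 50.3, 52.1 and 55.7 CPM in the control libraries, 44.1, 44.2 and 42.7 CPM at 10 µM, 59.2, 56.2 and 58.8 CPM at 100 µM, and 72, 71.7 and 66.1 CPM at 1000 µM. The 4 groups did not overlap: 10 µM was lowest, then control, 100 µM and 1000 µM. On the log2 scale CDKN1B differed from control by -0.27 ± 0.0816 at 10 µM (edgeR adjusted p = 0.0332), 0.14 ± 0.0815 at 100 µM (adjusted p = 0.169) and 0.41 ± 0.0814 at 1000 µM (adjusted p = 0.00027). Set B read lower at 1 µM as well, with 45.2 CPM in replicate 3 against 54.1 and 57.3 CPM in replicates 1 and 2. In the fit with the set term CDKN1B stood at 0.032 at 10 µM (adjusted p = 1), 0.46 at 100 µM (adjusted p = 0.0175) and 0.72 at 1000 µM (adjusted p = 0.00012). The call at 10 µM was lost without control replicate 2 or 3 (-0.28 and -0.22, adjusted p = 0.0667 and 0.0989) and without 10 µM replicate 1, 2 or 3 (-0.28, -0.28 and -0.25, adjusted p = 0.0881, 0.0808 and 0.104), and with no filter on low counts (-0.24, adjusted p = 0.182). The rise at 1000 µM held in all 28 alternative fits, with an adjusted p from 1.36e-06 to 0.00967.

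CDKN2C (chr1:50960745-50974633, plus strand), the gene of the INK4 inhibitor p18, had the largest log2 difference between 100 and 1000 µM of the 9 tested genes in the fit of all 21 libraries. It was measured at 5.78, 5.48 and 5.64 CPM in the control libraries, 6.58, 6.63 and 6.10 CPM at 10 µM, 11.02, 13.1 and 9.22 CPM at 100 µM, and 2.63, 3.72 and 2.65 CPM at 1000 µM. Every library at 100 µM lay above, and every library at 1000 µM below, all 15 libraries of the other 5 groups. Against control this was a log2 fold change of 0.99 ± 0.136 at 100 µM (edgeR adjusted p = 9.2e-06) and -0.91 ± 0.144 at 1000 µM (adjusted p = 2.36e-05). With the set term the values were 1.31 (adjusted p = 0.000379) and -0.70 (adjusted p = 0.0153), and both calls held in all 28 alternative fits.

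CDKN2D (chr19:10566462-10569059, minus strand), the gene of the INK4 inhibitor p19, fell at both high doses with a large spread. It read 9.32, 9.01 and 6.48 CPM in the control libraries, 9.99, 11.4 and 9.88 CPM at 10 µM, 0.150, 4.46 and 1.28 CPM at 100 µM, and 2.91, 3.79 and 1.62 CPM at 1000 µM. The 100 µM values rest on 4, 209 and 29 counts. At both doses the set C libraries were lower than the set B libraries, and all 6 lay below the lowest control. Relative to control the log2 fold change was -1.95 ± 0.548 at 100 µM (edgeR adjusted p = 0.00832) and -1.57 ± 0.54 at 1000 µM (adjusted p = 0.0207), and with the set term -1.90 and -1.86 (adjusted p = 0.0279 and 0.0117). At 100 µM the value was -1.98 in a fit of the control and that dose alone (adjusted p = 0.146), -3.60 without replicate 2 (adjusted p = 2.76e-05) and -0.89 in sets A and B, where that library is the only one at 100 µM and is assumed to vary like the other groups (adjusted p = 0.0273). At 1000 µM the call was lost without control replicate 1 or 2 (-1.48 and -1.51, adjusted p = 0.0537 and 0.0517), without 1000 µM replicate 1 or 3 (-1.60 and -1.32, adjusted p = 0.0545 and 0.0713) and with no filter on low counts (-1.56, adjusted p = 0.0576).

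RB1 (chr13:48303726-48599436, plus strand), the gene of the retinoblastoma protein on which these kinases act, was lower at the 3 lowest doses than in the control without passing the adjusted threshold. Its level was 59.3, 61.0 and 74.5 CPM in the control libraries and between 45.8 and 53.6 CPM in all 9 libraries at 0.01, 0.1 and 1 µM. At 10 µM it read 55.7, 57.75 and 61.5 CPM, a log2 fold change of -0.15 (edgeR adjusted p = 0.281). It read 62.7, 58.3 and 61.8 CPM at 100 µM and 64.6, 69.6 and 58.5 CPM at 1000 µM, within or near the control range. The log2 fold change was -0.38 ± 0.0944 at 0.01 µM (edgeR adjusted p = 0.115), -0.35 ± 0.0944 at 0.1 µM (adjusted p = 0.318) and -0.41 ± 0.0944 at 1 µM (adjusted p = 0.0886), while at 100 and 1000 µM it was -0.091 and -0.014 (adjusted p = 0.449 and 0.908). All control and 0.01, 0.1 and 1 µM libraries are in set A except 1 µM replicate 3, and those at 100 and 1000 µM are in sets B and C. The 0.01 µM difference passed with the set term (adjusted p = 0.0349) and with DESeq2 (-0.37, adjusted p = 0.0201). It did not pass in sets A and B alone (-0.38, adjusted p = 0.0577) or in set A alone (-0.37, adjusted p = 0.0922). The 1 µM difference passed with DESeq2 (-0.41, adjusted p = 0.00603), in sets A and B alone (-0.41, adjusted p = 0.0478) and without 1000 µM replicate 3 (-0.41, adjusted p = 0.0494). It did not pass with the set term (-0.42, adjusted p = 0.0598) or in set A alone (-0.41, adjusted p = 0.153).

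The direct comparison of 1000 with 100 µM involves no control library and has sets B and C at both doses. In it CCND1, CCND3, CDK4 and CDKN2C fell and CDKN1B rose, 5 of 9 called (44% of all features), and with the set term CCND2 joined them, 6 of 9 (46.3%). CDKN2C fell by 1.90 ± 0.143 on the log2 scale, to 0.268 of its level at 100 µM (edgeR adjusted p = 3.54e-09). CCND1 fell by 0.68 ± 0.0819 (adjusted p = 1.83e-06) and CDK4 by 0.41 ± 0.0981 (adjusted p = 0.00216), while CDKN1B rose by 0.27 ± 0.0814 (adjusted p = 0.0114). With the set term these 4 values were -2.01, -0.62, -0.41 and 0.26. The CDKN1B call was lost with no filter on low counts (0.25, adjusted p = 0.0832). CCND3 fell by 0.67 ± 0.197 (adjusted p = 0.0101), but the call was lost without 1000 µM replicate 2 (-0.57, adjusted p = 0.0538), in sets A and B alone (-0.68, adjusted p = 0.0972), within set B (adjusted p = 0.0616) and within set C (adjusted p = 0.194). CCND2 stood at -0.38 ± 0.176 (adjusted p = 0.0914), at -0.44 with the set term (adjusted p = 0.0304) and at -0.52 without 100 µM replicate 1 (adjusted p = 0.0291). CDK6 was at 0.39 ± 0.158 (adjusted p = 0.0548), at 0.54 without 100 µM replicate 2 (adjusted p = 0.0143) and at 0.57 without 1000 µM replicate 3 (adjusted p = 0.00148). In the fit with the set term CDK6 was at 0.19 (adjusted p = 0.145), and within the sets at 0.32 in set B (adjusted p = 0.0735) and 0.057 in set C (adjusted p = 0.818). CDKN2D was at 0.39 ± 0.571 (adjusted p = 0.616), and at 2.03 without 100 µM replicate 2 (adjusted p = 0.0052), so the size of the difference and its call depend on that library.

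Within each set the same contrast could be read separately, with 1 library at 100 µM and 2 at 1000 µM from set B, against 2 and 1 from set C. Each has an arm of 1 library, which is assumed to vary like the other groups, and 43.2% and 26.4% of all features were called. For CDKN2C the log2 difference in set B was -2.07 ± 0.167, next to -1.93 ± 0.207 in set C. For CCND1 the values were -0.62 ± 0.102 and -0.63 ± 0.107, and both genes passed in both sets (highest edgeR adjusted p = 0.000186, CCND1 in set C). CDK4 stood at -0.56 ± 0.103 in the former and -0.25 ± 0.107 in the latter, passing in set B (edgeR adjusted p = 0.000218) but not in set C (0.0955). CDKN1B stood at 0.36 ± 0.0948 and 0.16 ± 0.0947, likewise passing in set B (adjusted p = 0.00512) but not in set C (0.228). CDKN2D had opposite signs, -0.42 ± 0.391 and 1.25 ± 0.642. The test of the difference between the sets called 0.0947% of all features and none of the 9 genes, with a lowest adjusted p of 0.288, that of CDKN2D, so with so few libraries it says little about whether the sets differed.

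Set B also allows 10 and 1000 µM to be compared inside 1 set, with 3 and 2 libraries. There 8 of 9 genes were called, against 65.1% of the 18323 features tested in this set. CDKN2D fell by 1.69 ± 0.134 on the log2 scale (edgeR adjusted p = 2.54e-07), CCND2 by 1.23 ± 0.148 (adjusted p = 1.06e-05), CDKN2C by 1.08 ± 0.146 (adjusted p = 3.06e-05), CDK4 by 0.59 ± 0.0528 (adjusted p = 7.06e-07) and CCND1 by 0.56 ± 0.051 (adjusted p = 9.38e-07). CDKN1B rose by 0.68 ± 0.0531 (adjusted p = 2.04e-07) and CDK6 by 0.39 ± 0.0803 (adjusted p = 0.00199). RB1 rose by 0.17 ± 0.0619 (adjusted p = 0.0313), a call lost without 10 µM replicate 1 (0.14, adjusted p = 0.119) or 1000 µM replicate 2 (0.12, adjusted p = 0.246). CCND3 was at -0.12 ± 0.11 (adjusted p = 0.352). CCND1, CCND2, CDKN2C and CDKN2D therefore fell, and CDKN1B rose, at 1000 µM against the control, with and without the set term, and against 10 µM within set B.

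**Figure D2:**
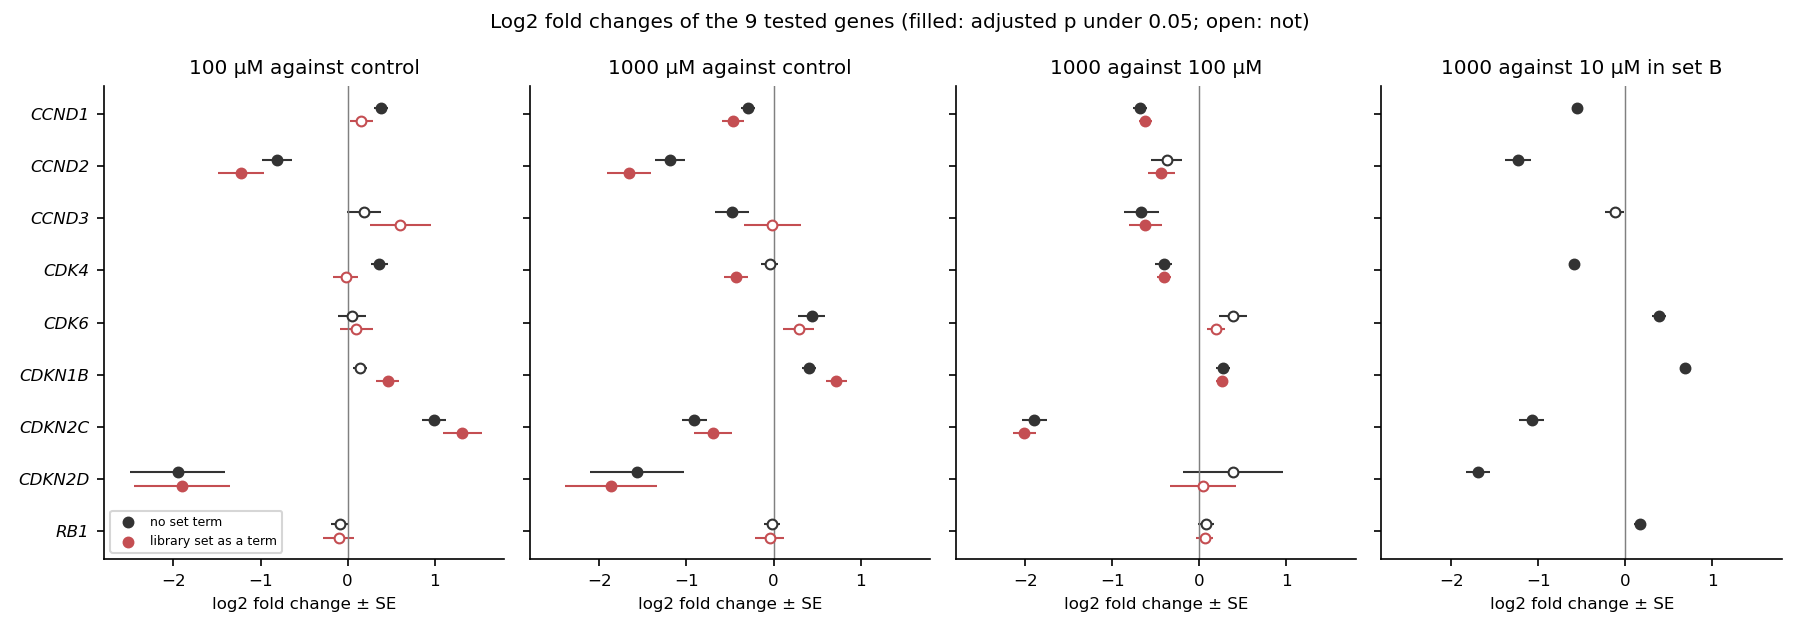
Log2 fold changes with standard errors (x axes) of the 9 tested genes (rows) in 4 comparisons, in black without and in red with a term for the library set, with filled points where the adjusted p was below 0.05. CDKN2C sits at 0.99 at 100 µM and at -0.91 at 1000 µM, and CDK4 at 100 µM moves from 0.37 to -0.024 with the set term.

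Ratios of 2 transcripts were formed within each library from levels in CPM per kb. The ratio of CDKN1B to CCND1, an inhibitor against the main cyclin, was 0.424, 0.468 and 0.580 in the control libraries, 0.371, 0.357 and 0.346 at 10 µM, 0.408, 0.431 and 0.393 at 100 µM, and 0.865, 0.828 and 0.692 at 1000 µM. The 1000 µM libraries were above all 18 others, in set C as in set B. CDKN2C as a share of CDK4, an inhibitor against its target kinase, was 4.99% ± 0.549 (SD, n = 3) in the control, 7.56% ± 0.946 at 100 µM and 2.75% ± 0.722 at 1000 µM, and these 3 groups did not overlap. The ratio of CDK6 to CDK4 was 0.426 ± 0.0741 in the control and 0.598 ± 0.181 at 1000 µM. At 1000 µM it stood at 0.686 and 0.718 in the set B libraries and at 0.390 in the set C library, which lay inside the control range of 0.354 to 0.502. No test was run on these ratios.

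**Figure D3:**
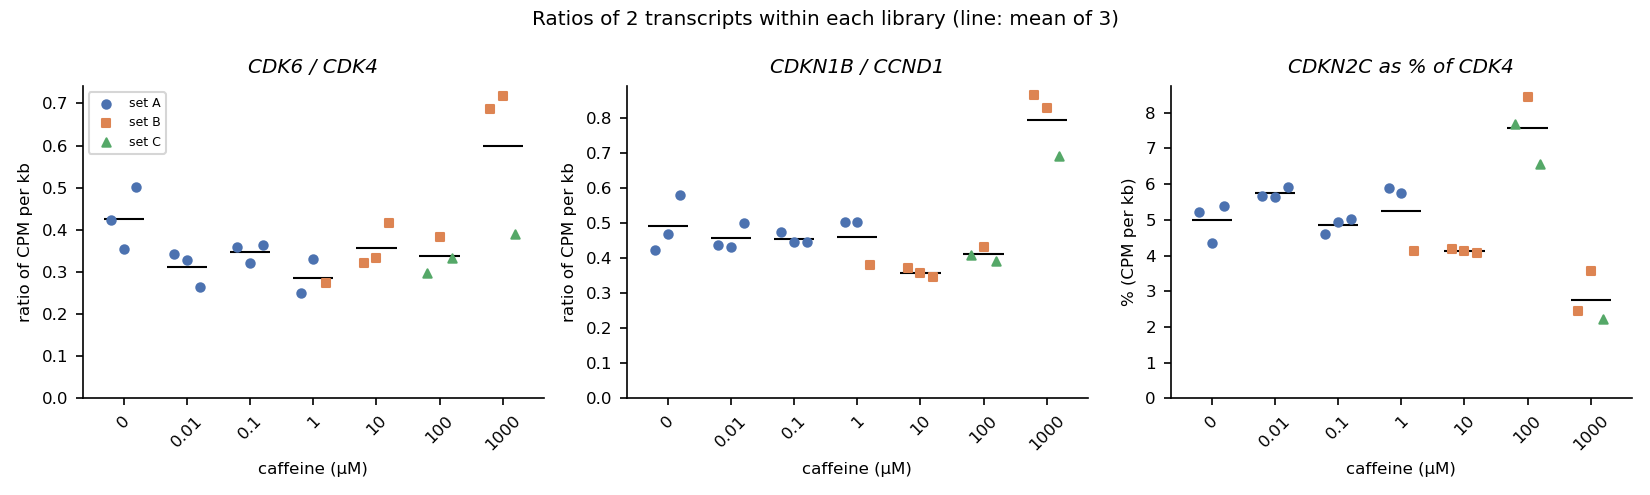
Ratios of 2 transcripts, in CPM per kb (y axes), in each of the 21 libraries by caffeine concentration (x axes, µM), with shape and colour for the library set and a line at the mean of 3. CDKN1B over CCND1 lies between 0.692 and 0.865 at 1000 µM, and CDKN2C is 6.56 to 8.44% of CDK4 at 100 µM and 2.22 to 3.57% at 1000 µM.

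The genes around these 10 in the G1/S pathway were examined in 4 lists. The lists were chosen with earlier results of these data known, so their counts and medians are descriptions only. All 16 of 16 listed E2F target genes of S phase rose at 100 µM, where 46.6% of all features were called in either direction, with a median log2 fold change of 0.86 against -0.012 over all features tested. At 1000 µM (57.6% of all features called), 13 of 16 fell and none rose, with a median of -0.59 against -0.0069, and between 100 and 1000 µM (44%) all 16 fell, with a median of -1.49 against 0.0038. With the set term, 15 rose at 100 µM (17.3%) and 10 fell at 1000 µM (38%), and 15 of 16 fell from 10 to 1000 µM within set B (65.1%). PCNA, the sliding clamp of DNA polymerases, went from 194 ± 14.1 CPM in the control to 286 ± 15 CPM at 100 µM and 101 ± 2.31 CPM at 1000 µM. MCM5, a subunit of the replicative helicase, went from 36.9 ± 7.02 to 89.9 ± 9.09 and 21.3 ± 3.06 CPM. MCM2, another subunit, went from 56.1 ± 12.9 to 99.8 ± 21.4 and 29.2 ± 0.977 CPM. TK1, thymidine kinase, went from 22.9 ± 3.45 to 60.2 ± 1.04 and 13.4 ± 2.85 CPM. With the set term the values at 1000 µM were -0.51 for MCM5 (adjusted p = 0.0717), against -0.79 without it, and -0.62 for MCM2 (adjusted p = 0.0374), against -0.94. The 3 members that did not pass at 1000 µM, named after their values were seen, were CDT1 at 0.040, RRM2 at -0.043 and POLA1 at 0.11.

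Among the RB relatives, E2F and DREAM factors (DREAM is the complex of RB relatives that represses cell cycle genes), 15 of 18 were called at 100 µM (46.6% of all features), 13 upward and 2 downward, and 16 of 18 at 1000 µM (57.6%), 7 upward and 9 downward. Their medians were 0.57 and -0.21. With the set term 10 and 12 were called (17.3% and 38% of all features). RBL1, which encodes the RB relative p107, rose from 6.52 ± 0.535 CPM in the control to 44.1 ± 1.49 CPM at 100 µM, a log2 fold change of 2.76 ± 0.114 (edgeR adjusted p = 3.49e-12), and to 24.5 ± 2.15 CPM at 1000 µM (1.91 ± 0.112, adjusted p = 4.8e-11). RBL2, which encodes the RB relative p130, rose from 55.1 ± 7.14 to 95.7 ± 2.15 and 113 ± 1.49 CPM. Both relatives rose at both doses, at which RB1 itself did not pass. E2F8, a repressor E2F, rose to 13.8 ± 1.33 CPM at 100 µM from 4.28 ± 0.278 CPM and stood at 2.97 ± 0.561 CPM at 1000 µM. Its value at 1000 µM was -0.54 (adjusted p = 0.0104), and -0.078 with the set term (adjusted p = 0.827). E2F7, the other repressor of this kind, was at 7.59 ± 0.798, 11.4 ± 1.12 and 2.94 ± 0.288 CPM. MYBL2, a partner of the complex that activates mitotic genes, was at 111 ± 10.2, 166 ± 2.16 and 44.99 ± 14 CPM. LIN37 and LIN52, subunits of the complex, fell at 1000 µM, from 9.35 ± 1.07 to 4.73 ± 0.719 CPM and from 34.7 ± 1.26 to 19.8 ± 0.364 CPM, and LIN37 stood at 3.63 ± 1.23 CPM at 100 µM. The LIN52 value at 1000 µM was -0.81, and -0.47 with the set term.

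Of the G1/S kinase partners, 7 of 11 were called at 100 µM (46.6% of all features), all upward, and 8 of 11 at 1000 µM (57.6%), 3 upward and 5 downward, with medians of 0.49 and -0.17. In the fit with the set term 5 and 6 were called (17.3% and 38% of all features). Nothing particular to the list is read from these counts. The cyclin E genes CCNE1 and CCNE2, whose products activate CDK2 after the D cyclins have acted, rose at 100 µM, from 22.2 ± 1.01 to 31.3 ± 3.51 CPM and from 1.81 ± 0.575 to 4.38 ± 0.406 CPM. At 1000 µM CCNE1 fell to 12.4 ± 2.56 CPM and CCNE2 stood at 1.61 ± 0.191 CPM. With the set term the CCNE2 value at 100 µM was 1.12 (adjusted p = 0.0512), and the CCNE1 value at 1000 µM was -0.54 against -0.85 without it. MNAT1 and CDK7, which belong to the kinase complex that activates CDKs, stood at 40.1 ± 1.62 CPM against 9.85 ± 1.68 CPM in the control and at 92.6 ± 9.46 CPM against 46.3 ± 7.49 CPM at 1000 µM, log2 rises of 2.03 ± 0.113 and 1.00 ± 0.111. CDKN3, a phosphatase that acts on CDK2, fell to 15.2 ± 5.48 CPM at 1000 µM from 33.3 ± 9.07 CPM, a log2 fold change of -1.13, and -0.73 with the set term. CDKN1A, the Cip/Kip gene of p21 and named after its values were seen, stood at -0.16 ± 0.0849 at 100 µM (edgeR adjusted p = 0.13) and fell by 0.45 ± 0.0852 at 1000 µM (adjusted p = 0.000169), the dose at which CDKN1B rose.

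In the list of genes for the turnover of D cyclins and p27, 6 of 13 were called at 100 µM (46.2%, against 46.6% of all features), 5 upward and 1 downward, and 8 of 13 at 1000 µM (61.5%, against 57.6%), 5 upward and 3 downward, with medians of 0.18 and 0.077. In the fit with the set term 4 and 6 were called (17.3% and 38% of all features). These shares are near those of all features, so the counts are no result about the list, and the genes below are described one by one. SKP2, the receptor of the ligase that marks p27 for degradation, stood at 42.5 ± 5.39 CPM in the control, 65.6 ± 5.55 CPM at 100 µM and 20.6 ± 2.69 CPM at 1000 µM, a log2 fold change of -1.04 ± 0.107 at 1000 µM (edgeR adjusted p = 1.06e-07). AMBRA1, the receptor that marks D cyclins for degradation, rose from 12.03 ± 1.59 to 28.1 ± 3.62 CPM at 100 µM and 28.99 ± 2.02 CPM at 1000 µM. CUL1, the scaffold of the SKP2 ligase, rose from 34.8 ± 2.86 to 81.8 ± 4.64 and 77.7 ± 3.53 CPM. FBXO4, an F-box protein reported to act on cyclin D1, went from 2.20 ± 0.722 to 6.21 ± 0.761 and 3.97 ± 0.34 CPM. At 1000 µM the FBXO4 value was 0.86 (adjusted p = 0.000455) and with the set term 0.79 (adjusted p = 0.0577). GSK3B, a kinase that phosphorylates cyclin D1 ahead of its degradation, was at 83.5 ± 2.8, 64.3 ± 10.9 and 60.6 ± 8.99 CPM, and its difference at 100 µM did not pass with the set term (-0.25, adjusted p = 0.325). UBAC1, a subunit of a ligase that acts on p27, fell from 25.1 ± 1.83 to 16.7 ± 1.72 CPM at 1000 µM.

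**Figure D4:**
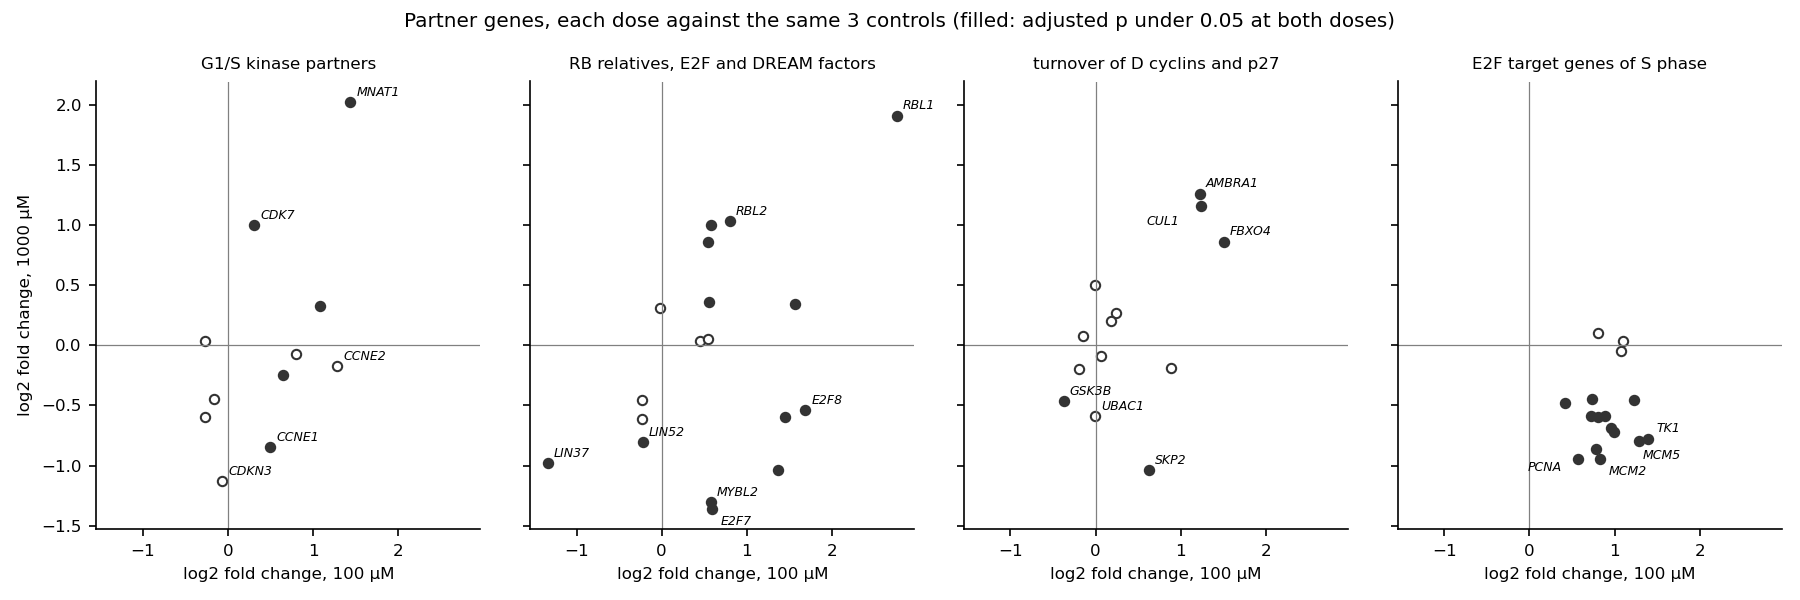
Log2 fold change at 1000 µM (y axis) against that at 100 µM (x axis) for the genes of 4 lists, each dose against the same 3 controls, with filled points where both adjusted p-values were below 0.05. The 16 E2F target genes all lie to the right of 0 on the x axis, with PCNA and MCM2 lowest at -0.94 at 1000 µM, and RBL1 lies farthest right at 2.76.

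Across the 21 libraries the 9 tested genes did not move as a block. The highest Pearson r of log2 CPM between 2 of them was 0.821, between CCND1 and CDKN2C, and the lowest was -0.846, between CCND2 and CDKN1B. CDK6 and RB1 were at 0.750, CCND2 and CDKN2D at 0.758, and CCND3 and CDK6 at -0.706. These are descriptions over libraries that share doses, sets and depth. Among 10869 other nuclear genes with a mean of at least 5 CPM, the gene with the highest r was ASRGL1 for CDKN2C (0.963), GPHA2 for CCND1 (0.957), SENP2 for CCND2 (0.961) and HNRNPUL1 for CCND3 (0.903). It was OAZ1 for CDK4 (0.964), RANBP2 for CDK6 (0.981), LEO1 for CDKN1B (0.948), IRGQ for CDKN2D (0.952) and GPC6 for RB1 (0.948).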

How the data were processed

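RNA was measured in 21 HepG2 libraries, 3 per group, grouped by the concentration in the sample titles. The authors deposited raw counts per gene; per the submitters' processing notes the build was GRCh38 and HISAT2 and DESeq2 were used, in roles not stated. The counting tool, annotation and strand setting are not given in the sources used here. The table's other 21 single-sample columns match no label here and were left out. Totals of 23502519 to 44815552 counts set the counting precision.

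The counts were tested with edgeR 4.0.16 in R 4.3.3 (glmQLFit robust, glmQLFTest, filterByExpr by group, TMM), with a mean per group over all 21 libraries and Benjamini-Hochberg adjustment over 17951 features at 0.05. SE is the log2 fold change divided by the root of F. Levels per kb used GENCODE 29 exon lengths. Library sets came from average linkage on mitochondrial mRNAs (mean silhouette 0.571 for 3 sets, 0.525 for 2). Alternatives were DESeq2 1.42.0, its size factors, no filter, a replicate block, a set term, only control and 1 dose, a linear dose and leaving out each library. Fits on sets A and B only and on set A alone were chosen after seeing the data. The code was tested on simulated counts. Replicates are triplicate treatments of 1 line, so p-values measure the spread between these cultures, which may be technical in part.

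Named genes are the 10 genes, up to 2 called genes with the largest rise and 2 with the largest fall per list at 100 and 1000 µM with a mean of at least 1 CPM, and the gene most alike to each. Outside this rule, the cell type markers and the neighbours LTO1, ENSG00000285901 and TSPAN31 are named. CDT1, RRM2, POLA1 and CDKN1A were named after their values were seen. The genes and lists were chosen with earlier results of these data known.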

Additional observations from a re-analysis of the deposited data

How the results depend on the processing

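Of 669 values of the 29 called gene results under the alternatives, 622 kept their direction and their side of the threshold, 45 no longer passed and 2 reversed, both with the library set as a term: CDKN1B at 10 µM (0.032) and CDK4 at 100 µM (-0.024). The set term also lost the calls of CDK4 at 10 µM, CCND1 at 100 µM, CCND3 and CDK6 at 1000 µM and the CDK6 slope. The cause of these changes was not tested. Most of the 669 values are fits that leave out 1 library, 21 of 28 for a gene at 1 dose. Many of those leave out a library of another dose, so the total says little about the set term. The number of the 9 genes called at 0.01 µM was 0, and 1 with DESeq2's Wald test or the set term. At 1 µM it was 0, and 1 with DESeq2's Wald test or in sets A and B alone. At 10 µM it was 2, 1 with no filter on low counts (more features tested) and 0 with the set term. At 1000 µM it was 7, and 4 with only the control and that dose (6 libraries). On the slope it was 2, and 7 on linear dose. The share of all features called was not computed for the linear dose, no filter, the replicate block or only the control and 1 dose. Nor was it computed for sets A and B alone or for fits that leave out a library. Counts from those fits, here and below, are therefore not read as results about these genes.

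Leaving out each library in turn gave 0 to 1 called at 1 µM (1 without 1000 µM replicate 3), 1 to 2 at 10 µM (1 without control replicate 2 or 10 µM replicate 1, 2 or 3), 5 at 100 µM, 4 to 7 at 1000 µM, 4 to 7 for 1000 against 100 µM, 7 to 8 for 1000 against 10 µM in set B and 2 to 5 on the slope (above 2 without control replicate 3 or 10 µM replicate 1, 2 or 3).

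Replicate numbers did not pair the libraries: the mean correlation of same-numbered deviations was -0.108 to 0.152 over 21 pairs of groups, with 0 pairs of groups having all values over 0.1. With the replicate block the calls were 0, 0, 0, 2, 5 and 6 of 9 at the 6 doses in rising order, 9 in the joint test, 2 on the slope, 5 for 1000 against 100 µM and 8 in set B. DESeq2's size factors shifted the mean scaling of no dose group against the control by more than 0.015 log2 units. CDKN1C, at 0 to 2 counts a library, is limited by depth.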
